A study of Mus musculus with 2 samples.

Results

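Star, the genes of its START-domain relatives and the translocator protein genes encode the proteins that handle cholesterol on its way to and into mitochondria. The 8 genes described here (Star, Stard3, Stard3nl, Stard4, Stard5, Stard6, Tspo and Tspo2) were taken by name, each symbol matched to 1 gene ID of GENCODE M21 on mm10, out of 55536 annotated genes. They were measured by total RNA-seq, which reads both coding and noncoding RNA, in whole adrenal glands of 2 adult male B6CASTF1/J mice, hybrids of the B6 and Cast strains, aged 8 to 10 months. Replicate 2 is the mouse the labels call animal 4 and replicate 1 the mouse they call animal 2. Each library began with 300 ng of RNA, carried ERCC spike-ins (synthetic RNAs added in known amounts) and was made with a directional kit, which keeps the strand. No treatment, mutation or other group is named, so levels were compared between genes within a gland and between the 2 animals.

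Steroid hormones are made from cholesterol, and the first enzyme of the pathway, Cyp11a1, sits on the inner mitochondrial membrane, which cholesterol crosses the outer membrane to reach. Star, the steroidogenic acute regulatory protein, is made on demand after pituitary ACTH acts on the cortex and drives this transfer. Its carboxy-terminal START domain forms a pocket for a single sterol. Stard3 tethers late endosomes to other membranes and carries a START domain of its own, and Stard3nl shares its membrane-embedded part without the sterol pocket. Stard4 and Stard5 are small soluble sterol carriers, Stard6 is known mainly from germ cells of the testis, Tspo is a cholesterol-binding protein of the outer mitochondrial membrane, and Tspo2 is its relative in red cell precursors. Whether Tspo is needed for steroid synthesis has been disputed since mice lacking it were found to make steroids.

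The annotated coding sequences place the 8 proteins in families. Star (284 residues) shared 37.5% of 208 paired residues with Stard3 (446 residues), over residues 67 to 274 of Star and 232 to 439 of Stard3. Stard3nl (235 residues) instead aligned with residues 23 to 230 of Stard3, at 63.8% of 207 paired residues, so it shares the part of Stard3 that Star does not. Stard4 (224 residues), Stard5 (213 residues) and Stard6 (233 residues) formed the other branch. Stard4 and Stard5 were identical at 68 of 179 paired residues and Stard5 and Stard6 at 73 of 200. Against Star these carriers reached 24.4% for Stard4, 27.5% for Stard5 and 25.5% for Stard6. Tspo (169 residues) and Tspo2 (162 residues) shared 43.1% of 144 paired residues. No annotated gene is named as a pseudogene of any of the 8.

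Transcript models of these genes part at 4 places that matter for the values below, and the letters there are shown from the mm10 genome, joined at the GENCODE M21 exons and read on the coding strand. Star has a full-length model, Star-201, and a short one, Star-202, which is annotated as cut off inside the coding sequence. The Star-201 stretch below lies at chr8:25811077-25811103 and chr8:25811213-25811257 on the plus strand. Capitals mark the coding bases that follow the last base of Star-202, which belong to Star-201 alone.
Star-201: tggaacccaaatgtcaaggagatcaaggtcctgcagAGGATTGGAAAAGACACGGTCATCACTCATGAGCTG
Tspo has the same arrangement, and its stretch lies at chr15:83572290-83572338 and chr15:83573770-83573792 on the plus strand. Capitals again mark the bases past the annotated end of the short model, Tspo-202.
Tspo-201: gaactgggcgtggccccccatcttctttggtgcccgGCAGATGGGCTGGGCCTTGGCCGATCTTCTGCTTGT
Stard3nl is spliced to different last coding exons, on the minus strand, after the shared stretch chr13:19367744-19367773. Stard3nl-201 goes on at chr13:19358996-19359051 and Stard3nl-208 at chr13:19365286-19365345, into ends that encode different carboxy termini. The capitals mark the bases that follow the shared stretch. For Stard3nl-208 they are only the first 60 bases of its end.
Stard3nl-201: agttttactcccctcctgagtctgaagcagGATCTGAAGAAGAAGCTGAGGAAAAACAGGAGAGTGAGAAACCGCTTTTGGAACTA
Stard3nl-208: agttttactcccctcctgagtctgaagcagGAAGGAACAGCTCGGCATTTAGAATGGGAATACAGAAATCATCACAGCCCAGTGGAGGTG
Stard5 is shown at an exon end on the plus strand, chr7:83637668-83637697, after which its main coding model is spliced to chr7:83640422-83640457. A noncoding model annotated as a retained intron reads on without a break, over chr7:83637668-83637733. Its capitals start with GT, the letters that open most introns, and the capitals of the spliced model are the next coding exon.
Stard5 spliced: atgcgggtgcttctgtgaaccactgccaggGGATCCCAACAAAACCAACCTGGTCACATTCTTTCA
Stard5 retained intron: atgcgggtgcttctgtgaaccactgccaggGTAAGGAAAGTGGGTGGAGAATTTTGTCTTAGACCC

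The libraries held 33987434 estimated read counts on annotated genes in replicate 2 and 29994901 in replicate 1, so that a gene at 0 may still hide 3 counts, which is 0.0883 CPM (counts scaled to one library total) in replicate 2 and 0.1 CPM in replicate 1. Levels are given as TPM, a measure of transcript abundance that divides counts by transcript length and so can be set side by side between genes. Detection means at least 1 TPM in each of the libraries. The deposited tables come from 2 quantifiers, one set in the format RSEM writes and one in the format kallisto writes, and values are of the first unless said otherwise. Differences between the animals are folds of counts scaled by TMM (a factor that lines up most genes of the libraries), replicate 2 over replicate 1. Their 95% intervals are exact binomial ones that cover counting error only. With 1 animal on each side there is no test between animals. The cortical genes Cyp11a1, Hsd3b1, Cyp21a1, Cyp11b1, Scarb1, Mc2r and Nr5a1 and the 5 chromaffin genes checked were detected in both glands. The summed level of 6 fat cell markers was 1944 TPM in replicate 2 and 224 TPM in replicate 1, and that of 5 brown fat markers 282 TPM in replicate 2 and 26.9 TPM in replicate 1. All 11 were at least 2-fold higher in replicate 2, where 2.4% of the 12853 genes with a mean of 100 counts or more were. The 5 chromaffin genes summed to 2204 TPM in replicate 2 and 3101 TPM in replicate 1. The part of these cell types in the differences below was not tested. In whole glands, fewer cells of a type and less RNA per cell cannot be told apart.

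Star was the most abundant of the 8 genes by far (ENSMUSG00000031574.8, chromosome 8, 25806555 to 25815982, plus strand). It stood at 4897 TPM in replicate 2 and 6855 TPM in replicate 1, a mean of 5876 ± 1385 TPM (SD, n = 2), and was the coding nuclear gene of rank 2 in replicate 2 and of rank 1 in replicate 1. Star alone made up 95.1% of the summed TPM of the 8 genes in replicate 2 and 96.7% in replicate 1. Among all annotated genes it took 0.94% of the counts in replicate 2 and 1.43% in replicate 1. The kallisto-format level was close, 4688 TPM in replicate 2 and 6448 TPM in replicate 1, with rank 1 in both glands. The counts behind it, 319301 in replicate 2 and 428781 in replicate 1, make counting error negligible beside the difference between the animals. RSEM's own credibility bounds, 4752 to 4813 TPM in replicate 2 and 6649 to 6723 TPM in replicate 1, lie below the level itself, around a posterior mean of 4782 TPM in replicate 2 and 6686 TPM in replicate 1.

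**Figure D1:**
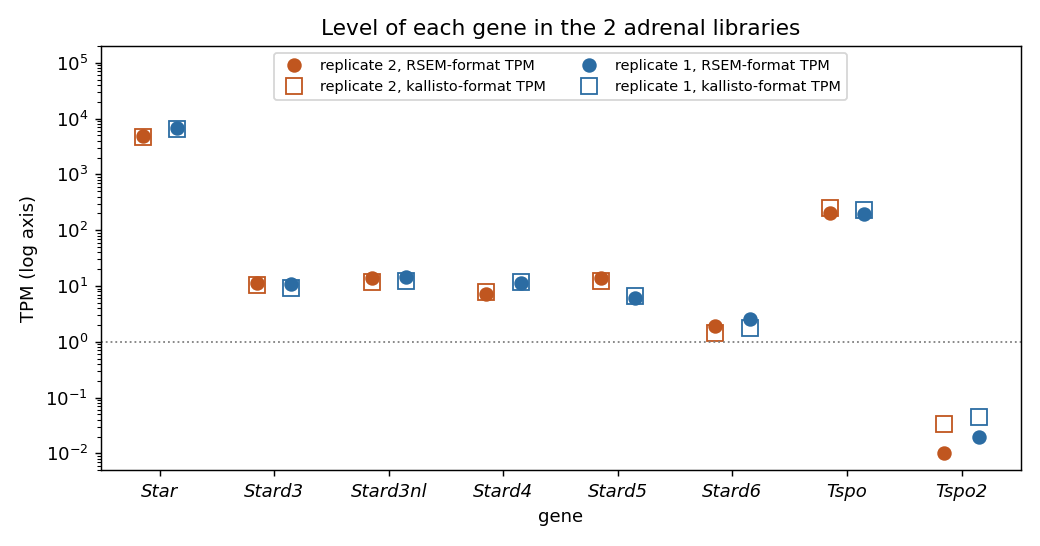
Level of each of the 8 genes in TPM (log axis) in replicate 2 (orange, left) and replicate 1 (blue, right), with filled circles for the RSEM-format and open squares for the kallisto-format tables. The dotted line marks 1 TPM. Star lies at 4688 TPM or more by both measures, Tspo between 191 and 247 TPM, the 4 genes Stard3, Stard3nl, Stard4 and Stard5 between 6.21 and 14.7 TPM, Stard6 just above the line and Tspo2 far below it.

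The short, incomplete model held over 50% of the TPM of Star. Star-201 is 4046 nt long with 852 coding bases and a 3′ UTR of 3099 nt including the stop codon, in 7 exons, and carries the best transcript support level, 1. Star-202 is 633 nt long with 471 coding bases, starts 1919 nt upstream of Star-201, shares 566 nt with it and has 67 nt of its own, with the lowest support level, 5. Most counts lay on Star-201: 87.2% of Star counts in replicate 2 and 88.0% in replicate 1. Because TPM divides by length, Star-202 with 12.83% of the counts in replicate 2 and 11.99% in replicate 1 nevertheless took 52.1% of the Star TPM in replicate 2 and 50.2% in replicate 1. Per kb of effective length, Star-202 had 76850 counts in replicate 2 and 96436 in replicate 1, against 70537 in replicate 2 and 95636 in replicate 1 for Star-201, so that RSEM placed both models at nearly the same density of counts. The kallisto-format share of Star-202 was higher still, 57.1% in replicate 2 and 55.1% in replicate 1. Rodent Star mRNA is known to occur with a long and a shorter 3′ UTR, and the annotation holds no complete model with the shorter one. Whether reads from such an mRNA account for the share of Star-202 was not tested.

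**Figure D2:**
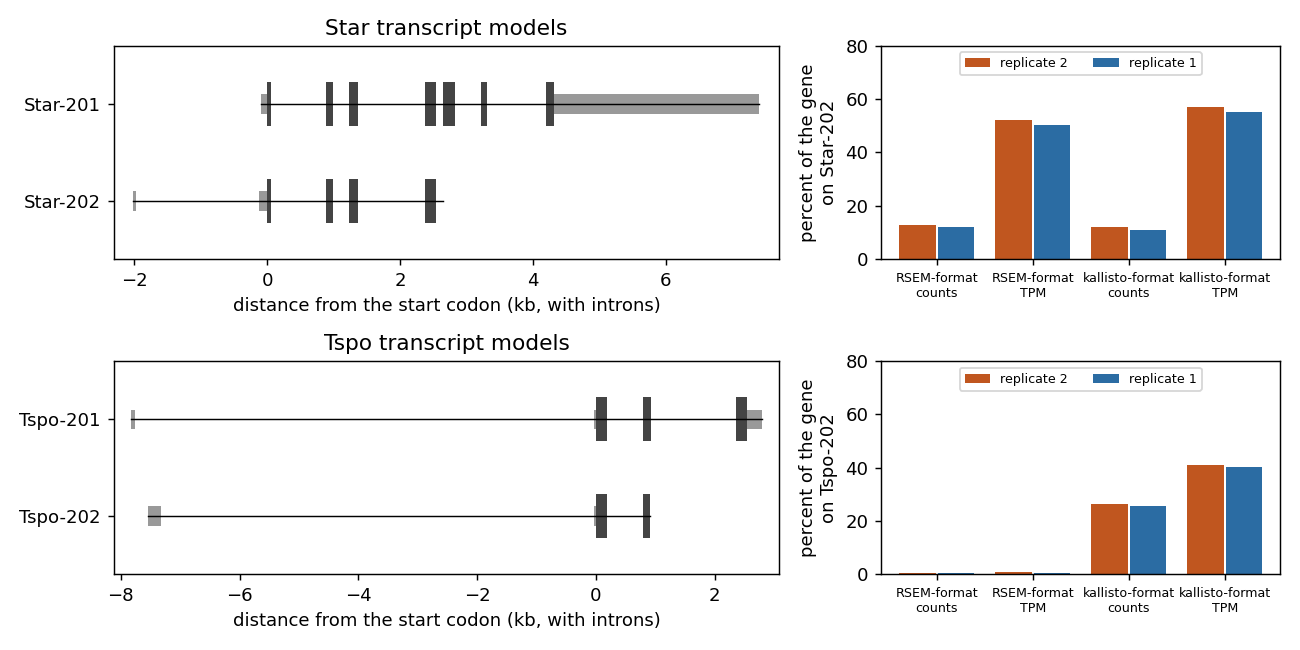
Left, exons of the transcript models of Star and Tspo against distance from the start codon in kb, thick where coding and thin where untranslated. Right, percent of the gene's counts and TPM placed on the short model in replicate 2 (orange) and replicate 1 (blue). Star-202 has 12.83% of the counts in replicate 2 and 11.99% in replicate 1 but over 50% of the TPM, and Tspo-202 has under 1% in the RSEM-format tables but 41.1% and 40.2% of the TPM in the kallisto-format ones.

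The place of Star among the steroid enzymes turned on these models. When the counts of incomplete models were moved to the complete models of the same gene, an alternative chosen after the data were seen, Star stood at 2688 TPM in replicate 2 and 3878 TPM in replicate 1, a mean of 3283 ± 841 TPM (SD, n = 2). Its rank was then 4 in replicate 2 and 3 in replicate 1, behind Hsd3b1, the enzyme that turns pregnenolone into progesterone, and Cyp11a1. As deposited, Star over Hsd3b1 was 0.92 in replicate 2 and 1.33 in replicate 1, and reassigned it was 0.505 in replicate 2 and 0.755 in replicate 1. Star over Cyp11a1 was 1.53 in replicate 2 and 1.72 in replicate 1 as deposited, and 0.844 in replicate 2 and 0.977 in replicate 1 reassigned. The order of Star and Hsd3b1 thus differed between the animals in the RSEM-format levels, and between the estimates in both animals. Incomplete models took 7.89% of the TPM of nuclear coding genes in replicate 2 and 8.48% in replicate 1, far less than their share of Star.

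**Figure D3:**
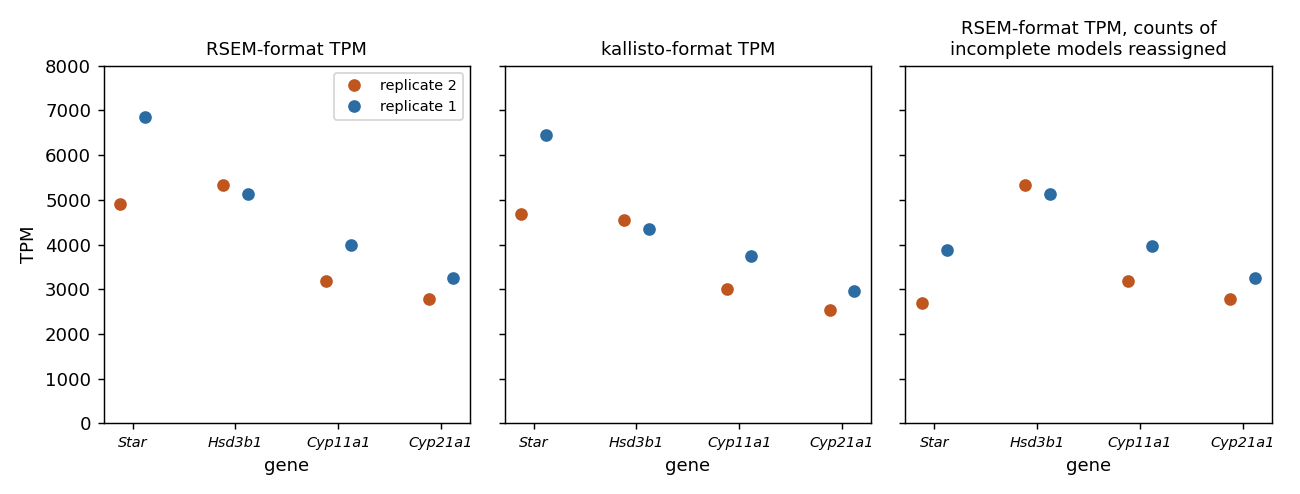
TPM of Star and of the steroid enzymes Hsd3b1, Cyp11a1 and Cyp21a1 in replicate 2 (orange, left) and replicate 1 (blue, right) by 3 estimates. Star leads in both glands in the kallisto-format levels, leads in replicate 1 alone in the RSEM-format levels, and lies below Hsd3b1 and Cyp11a1 in both glands once counts of incomplete models are reassigned.

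Star was lower in replicate 2 on every scale. The fold of scaled counts was 0.64 (interval 0.637 to 0.643) and the log2 ratio −0.64, or −0.63 in the kallisto-format counts, while the ratio of the TPM themselves was 0.714. Both models shared in it, with folds of 0.634 (0.631 to 0.637) for Star-201 and 0.685 (0.676 to 0.694) for Star-202. The other cortical genes also lay lower in replicate 2 on the log2 scale, 7 of 7 of them, or 6 of 7 when scaled to the ERCC totals, with a median of −0.36 beside 0.01 over all 12853 genes tested. Hsd3b1 differed little, at 5325 TPM in replicate 2 and 5140 TPM in replicate 1, with a fold of 0.959, or 1.01 when scaled to the ERCC totals. Scarb1, the receptor that takes up cholesterol esters from high-density lipoprotein, differed most of these, at 609 TPM in replicate 2 and 1453 TPM in replicate 1 (fold 0.384, interval 0.38 to 0.389). Star thus lay between these genes in the size of its difference.

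Stard3 and Stard3nl, the late endosome pair, were expressed at a like, modest level that barely differed between the animals. Stard3 (ENSMUSG00000018167.10, chromosome 11, 98358368 to 98381112, plus strand) had 11.5 TPM in replicate 2 and 11.0 TPM in replicate 1. Stard3nl (ENSMUSG00000003062.13, chromosome 13, 19357676 to 19395795, minus strand) had 13.8 TPM in replicate 2 and 14.7 TPM in replicate 1. Stard3 over Stard3nl was 0.834 in replicate 2 and 0.748 in replicate 1, so the gene of the protein without the sterol pocket had the higher level in both glands. These levels count noncoding models of both genes as well as coding ones. The folds, 1.03 (0.91 to 1.16) for Stard3 from 578 counts in replicate 2 and 483 in replicate 1, and 0.903 (0.799 to 1.02) for Stard3nl from 545 counts in replicate 2 and 519 in replicate 1, had intervals that include 1.

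The transcripts of this pair were less certain than their gene levels. The single coding model of Stard3 (ENSMUST00000018311.4), with 1338 coding bases, took 66.2% of the Stard3 TPM in replicate 2 and 60.3% in replicate 1, and the 6 other models of Stard3 are all annotated as noncoding. For Stard3nl the quantifiers named different leading transcripts. The RSEM-format tables gave Stard3nl-201 68.6% in replicate 2 and 60.4% in replicate 1 and listed Stard3nl-205 at 0, whereas the kallisto-format tables gave Stard3nl-205 72.6% in replicate 2 and 60.2% in replicate 1 and listed Stard3nl-201 at 0. Both models hold 705 coding bases and share 1266 nt, and they differ in the 5′ UTR, where Stard3nl-201 has 61 nt and Stard3nl-205 125 nt of its own. The model with the alternative carboxy terminus, Stard3nl-208, was reported by both, and the start of that end is printed above. Stard3nl-208 had 7.28% of the Stard3nl TPM in replicate 2 and 11.2% in replicate 1, and 7.53% in replicate 2 and 10.6% in replicate 1 in the kallisto-format tables.

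**Figure D4:**
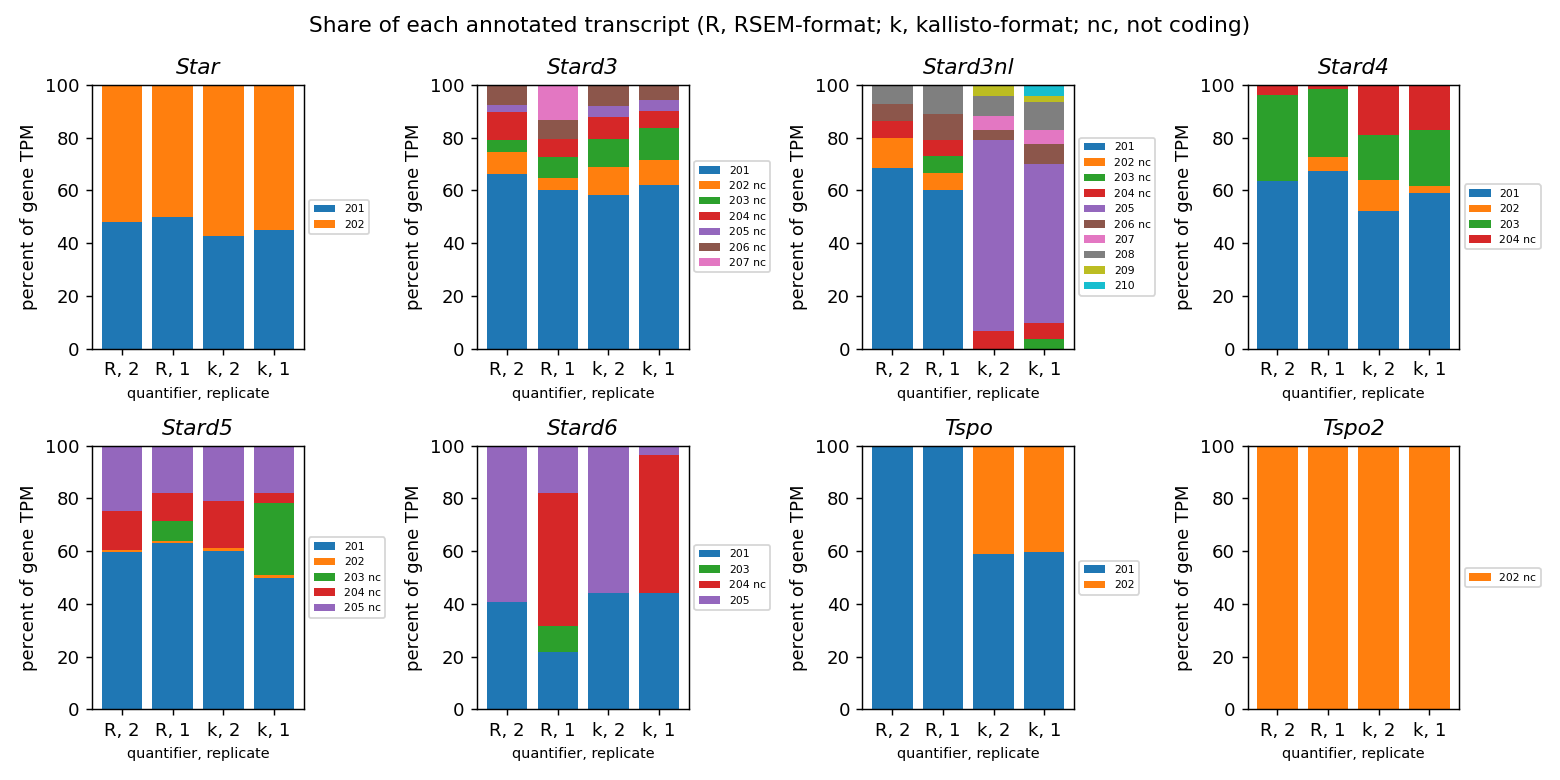
Percent of each gene's TPM on each annotated transcript model in replicate 2 and replicate 1, for the RSEM-format (R) and kallisto-format (k) tables, with "nc" for models that are not coding. Stard3nl changes its leading model and Tspo gains a large share on its short model between the formats, while in Stard6 the leading model differs between the animals.

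Stard4 and Stard5, the soluble carriers, differed in opposite directions between the animals. Stard4 is known as a target of Srebp2, the transcription factor that responds to low sterol levels (ENSMUSG00000024378.9, chromosome 18, 33199355 to 33213862, minus strand). It had 7.32 TPM in replicate 2 and 11.5 TPM in replicate 1, from 769 counts in replicate 2 and 1167 in replicate 1. Stard5 is known from macrophages and kidney and binds sterols or bile acids (ENSMUSG00000046027.17, chromosome 7, 83631959 to 83653127, plus strand). It had 13.95 TPM in replicate 2 and 6.21 TPM in replicate 1, from 713 counts in replicate 2 and 301 in replicate 1. Stard4 over Stard5 in TPM was accordingly 0.525 in replicate 2 and 1.85 in replicate 1, and the genes changed places in the order of levels.

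The fold of Stard4 was 0.567 (0.517 to 0.621) and that of Stard5 was 2.04 (1.78 to 2.34). Stard5 was the only one of the 6 genes with enough counts that was at least 2-fold apart, and it lay at the edge of that threshold, with 1.99 (1.75 to 2.27) from the kallisto-format counts. Srebf2, which encodes Srebp2, had 44.9 TPM in replicate 2 and 64.4 TPM in replicate 1 (fold 0.681). Its part in the Stard4 difference was not tested. Of the cell types for which Stard5 is known, 6 macrophage markers summed to 270 TPM in replicate 2 and 155 TPM in replicate 1, with 3 of 6 at least 1.5-fold higher in replicate 2, where 6.39% of all genes tested were, and 4 kidney markers summed to 1.29 TPM in replicate 2 and 0.38 TPM in replicate 1. Their part in the Stard5 difference was not tested.

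Retained-intron models took a larger share of the Stard5 TPM than of its counts. The main coding model of Stard5 (ENSMUST00000075418.14), with 639 coding bases, took 59.8% of the Stard5 TPM in replicate 2 and 63.1% in replicate 1. It held more of the counts, 83.9% in replicate 2 and 87.0% in replicate 1. A pair of retained-intron models held most of the other TPM. The one shown above running into the intron (ENSMUST00000150174.7) took 24.8% in replicate 2 and 18.0% in replicate 1, and the other (ENSMUST00000146469.1) took 14.7% in replicate 2 and 10.4% in replicate 1. By counts they had 11.7% and 3.30% of Stard5 in replicate 2, and 8.32% and 2.29% in replicate 1. In the kallisto-format tables they took 21.1% and 17.7% of the TPM in replicate 2, and 18.1% and 3.67% in replicate 1, where a short noncoding model held 27.45%. The coding model alone had a fold of 1.96 (1.69 to 2.28), and the retained-intron model shown above one of 2.85 (1.81 to 4.66) from 83.07 counts in replicate 2 and 25.03 in replicate 1. Stard5 overlaps Il16 on the opposite strand and Gm45838, a gene model awaiting experimental support, on the same strand. Gm45838 had 92 counts in replicate 2 and 33 in replicate 1 (fold 2.40, interval 1.59 to 3.68) and Il16 314 counts in replicate 2 and 166 in replicate 1 (fold 1.63, interval 1.34 to 1.98). Whether reads were shared among the 3 genes was not tested.

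The 2 leading models of Stard4 in the RSEM-format tables differ in their coding part. The long model (ENSMUST00000025236.8), with 672 coding bases, had 63.7% of the Stard4 TPM in replicate 2 and 67.2% in replicate 1, and the short model (ENSMUST00000119991.7), with 438 coding bases, 32.5% in replicate 2 and 25.8% in replicate 1. Most counts were on the long model, which measures 5097 nt: 702 in replicate 2 and 1083 in replicate 1 (fold 0.557, interval 0.506 to 0.613). The short model had 60.1 counts in replicate 2 and 69.8 in replicate 1 (fold 0.737), with an interval of 0.513 to 1.05 that includes 1. The kallisto-format share of the short model was lower, 17.1% in replicate 2 and 21.1% in replicate 1. There a retained-intron model took 19.0% in replicate 2 and 17.1% in replicate 1, against 3.79% in replicate 2 and 1.44% in replicate 1 in the RSEM-format tables.

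Stard6, the germ cell carrier, was at the limit of detection (ENSMUSG00000079608.10, chromosome 18, 70472454 to 70501066, plus strand). It had 1.95 TPM in replicate 2 and 2.55 TPM in replicate 1, from 50.3 estimated counts in replicate 2 and 51.6 in replicate 1, to which RSEM gave posterior standard deviations of 7.09 in replicate 2 and 5.28 in replicate 1. Its fold of 0.827 had an interval of 0.549 to 1.24. By TPM, the leading model was an incomplete coding one in replicate 2 and a noncoding one in replicate 1, by both quantifiers, resting on 16.8 RSEM counts in replicate 2 and 16.2 in replicate 1. By counts, a complete coding model (ENSMUST00000114959.8) led in both animals. It held 66.5% of the Stard6 counts in replicate 2 and 42.4% in replicate 1, or 74.4% in replicate 2 and 76.7% in replicate 1 in the kallisto-format tables. Germ cell markers were at or near 0: Prm1, Tnp1 and Acrv1 were listed at 0 in both libraries and the 5 germ cell markers summed to 0.16 TPM in replicate 2 and 0.15 TPM in replicate 1. Stard6 also overlaps 4930503L19Rik on the opposite strand by 56 nt.

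Tspo was the only other gene of the 8 above 20 TPM (ENSMUSG00000041736.7, chromosome 15, 83563592 to 83574203, plus strand). It had 203 TPM in replicate 2 and 191 TPM in replicate 1, a mean of 197 ± 8.34 TPM (SD, n = 2), with rank 225 in replicate 2 and 216 in replicate 1 among coding genes. Star exceeded it 24.1 times in replicate 2 and 35.8 times in replicate 1, or 13.3 times in replicate 2 and 20.3 times in replicate 1 with incomplete models reassigned. Unlike Star, Tspo hardly differed between the animals. Its fold was 0.98 (0.938 to 1.02) from 4494 counts in replicate 2 and 3944 in replicate 1, and which side of 1 it fell on changed with the scaling, since it was 1.03 (0.985 to 1.07) when the libraries were scaled to the ERCC totals. Dbi, whose product is a ligand of Tspo, had 299 TPM in replicate 2 and 218 TPM in replicate 1, so Tspo over Dbi was 0.68 in replicate 2 and 0.879 in replicate 1.

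The quantifiers parted on the transcripts of Tspo. Tspo-201, with 507 coding bases, held 99.3% of the Tspo TPM in replicate 2 and 99.5% in replicate 1 in the RSEM-format tables, but 59.0% in replicate 2 and 59.8% in replicate 1 in the kallisto-format ones. The incomplete Tspo-202 is 551 nt long, starts 283 nt downstream of Tspo-201 and has 214 nt of its own. It received 18.5 counts in replicate 2 and 11.5 in replicate 1 from RSEM, against 1245 in replicate 2 and 1072 in replicate 1 from kallisto. The kallisto-format level of the gene was correspondingly higher, 247 TPM in replicate 2 and 229 TPM in replicate 1, with RSEM over kallisto at 0.823 in replicate 2 and 0.835 in replicate 1. The disagreement was alike in both animals, and its cause was not tested. Tspo overlaps Mcat, on the opposite strand, by 196 nt, and Mcat had 952 counts in replicate 2 and 688 in replicate 1. Whether reads were shared between them was not tested.

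Tspo2 was not detected (ENSMUSG00000023995.12, chromosome 17, 48447907 to 48451522, minus strand). It had 1 count in replicate 2 and 2 counts in replicate 1, 0.01 TPM in replicate 2 and 0.02 TPM in replicate 1, both under the floor of 3 counts, and all of them on a retained-intron model. The kallisto-format tables gave it 4.08 counts in replicate 2 and 5 in replicate 1, again on that model. These counts are too few to compare the animals. Red cell RNA itself was plentiful, with the erythroid markers summing to 2285 TPM in replicate 2 and 1396 TPM in replicate 1, mostly globin.

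Between the animals, Star and Stard4 were lower, Stard5 higher and the other genes close to equal or too low to compare. Of the 6 that averaged 100 counts or more, 1 (Stard5) was at least 2-fold higher in replicate 2 and 0 were at least 2-fold lower, where 2.4% of the 12853 genes tested were higher and 1.1% lower by this rule. At 1.5-fold, 1 was higher (Stard5) and 2 were lower (Star and Stard4), where 6.39% of all genes were higher and 3.72% lower. Stard3, Stard3nl and Tspo had intervals that include 1. The median log2 ratio of the 6 genes was −0.08, beside 0.01 over all genes.

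**Figure D5:**
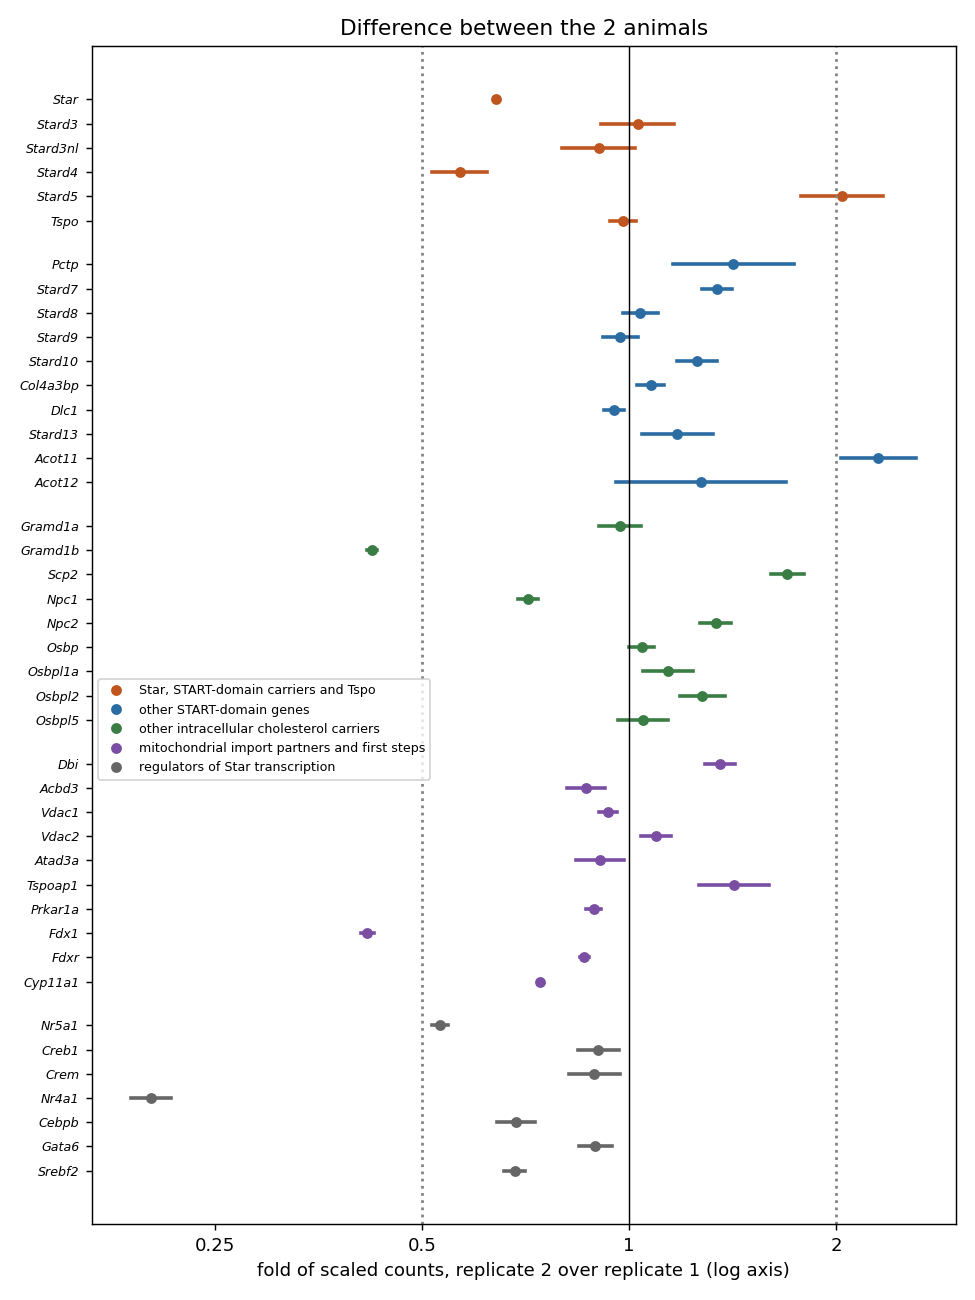
Fold of scaled counts, replicate 2 over replicate 1 (log axis), of those genes in 5 lists that averaged 100 counts or more, with 95% counting intervals as bars. Dotted lines mark 2-fold. Stard5 at 2.04 is the gene of the first list furthest to the right, Stard4 at 0.567 and Star at 0.64 lie left of 1, and Nr4a1 at 0.202 is the lowest point shown.

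The wider START family ranged from below the small carriers to above them in level. All 10 other START genes were detected and tested, from 1.82 to 60.8 TPM in replicate 2 and from 1.75 to 51.1 TPM in replicate 1. Of these 10, 1 was at least 2-fold higher in replicate 2 and 0 lower, where 2.4% of the 12853 genes tested were higher and 1.1% lower. Their median log2 ratio was 0.24, beside 0.01 over all genes. Stard10, a phospholipid carrier, stood at 60.8 TPM in replicate 2 and 44.2 TPM in replicate 1, and Stard7, which carries phosphatidylcholine to mitochondria, at 49.55 TPM in replicate 2 and 34.6 TPM in replicate 1. Col4a3bp, the ceramide carrier, had 34.0 TPM in replicate 2 and 39.0 TPM in replicate 1. The gene past 2-fold was Acot11, an acyl-CoA thioesterase of brown fat, with 919 counts in replicate 2 and 343 in replicate 1 (fold 2.30, interval 2.03 to 2.61), although its TPM differed less, at 9.45 in replicate 2 and 6.76 in replicate 1. It moved in the direction of the brown fat markers, and their part in it was not tested.

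Among 10 other intracellular cholesterol carriers, 9 were detected and tested, with a median log2 ratio of 0.07. Of these 9, 1 was at least 2-fold lower in replicate 2 and 0 higher, where 1.1% of all genes tested were lower and 2.4% higher. Gramd1b, also called Aster-B, which moves cholesterol from the plasma membrane to the endoplasmic reticulum, was the lower one. It had 127 TPM in replicate 2 and 296 TPM in replicate 1 (fold 0.422, interval 0.415 to 0.43). In the RSEM-format levels it was the most abundant of this list in both glands, above every gene of the START family other than Star. Scp2, a peroxisomal sterol carrier protein, went the other way, with 108 TPM in replicate 2 and 56.8 TPM in replicate 1 (fold 1.70, interval 1.61 to 1.80). In the kallisto-format levels Scp2 led the list in replicate 2, at 122 TPM against 99.5 TPM for Gramd1b. Npc1, which exports cholesterol from lysosomes, had 46.4 TPM in replicate 2 and 59.6 TPM in replicate 1 (fold 0.713), and its partner Npc2 39.2 TPM in replicate 2 and 26.7 TPM in replicate 1 (fold 1.34). Gramd1a, Osbp and Osbpl5 had folds between 0.969 and 1.05.

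The 10 partners of mitochondrial import and the first steps of synthesis were all detected and tested, with a median log2 ratio of −0.15. Of these 10, 1 was at least 2-fold lower in replicate 2 and 0 higher, where 1.1% of all genes tested were lower and 2.4% higher. The lower one was Fdx1, the ferredoxin that passes electrons to Cyp11a1, with 516 TPM in replicate 2 and 1136 TPM in replicate 1 (fold 0.416, interval 0.407 to 0.425). Its reductase Fdxr had 690 TPM in replicate 2 and 741 TPM in replicate 1 (fold 0.86), and Cyp11a1 itself 3192 TPM in replicate 2 and 3992 TPM in replicate 1 (fold 0.742). The outer membrane channel Vdac1, with 156 TPM in replicate 2 and 155 TPM in replicate 1, and the inner membrane ATPase Atad3a, with 25.8 TPM in replicate 2 and 27.7 TPM in replicate 1, differed little, with folds of 0.932 for Vdac1 and 0.907 for Atad3a. Acbd3, a scaffold that binds Tspo, had a fold of 0.865.

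All 7 regulators of Star transcription with enough counts, of 10 listed, lay on the lower side in replicate 2. Of these 7, 1 was at least 2-fold lower in replicate 2 and 0 higher, where 1.1% of all genes tested were lower and 2.4% higher. The median log2 ratio of the 7 was −0.54 beside 0.01 over all genes. Nr4a1, an immediate early nuclear receptor induced by ACTH, had 17.9 TPM in replicate 2 and 78.4 TPM in replicate 1 (fold 0.202, interval 0.189 to 0.216). Nr5a1, the steroidogenic factor that binds the Star promoter, had 101 TPM in replicate 2 and 176 TPM in replicate 1 (fold 0.53, interval 0.516 to 0.545). Cebpb, another activator, had a fold of 0.685, and Creb1, Crem and Gata6 had folds of 0.901, 0.889 and 0.893. Of the 3 with too few counts, Nr0b1, a repressor of Star, had 1.38 TPM in replicate 2 and 1.76 TPM in replicate 1, Nr5a2 1.47 TPM in replicate 2 and 1.01 TPM in replicate 1, and Gata4 lay under 1 TPM in both. The cortical markers lay on the same side as these regulators, Nr5a1 being in both lists, and so did all 5 chromaffin genes. The part of cortical cell content in the regulators' differences was not tested.

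Genes that came closest to each of the 6 with enough counts were sought among coding genes within a 2-fold window of its mean TPM, by the log2 ratio between the 2 libraries, which is a thin measure of likeness. Star had 3 genes in its window, and in order of likeness these were Cyp11a1 (log2 ratio −0.43), Cyp21a1 (−0.36) and Hsd3b1 (−0.06), each nearer 0 than Star at −0.64. Stard4, at −0.79, was closest to Plat (−0.79), a plasminogen activator, Egr1 (−0.80), an immediate early transcription factor, and Ackr3 (−0.77), a chemokine receptor, out of 5154 candidates. Stard5, at 0.96, was closest to Gm14419, Selenbp1 and Bmf out of 5240, and Tspo, at −0.03, to Ltbp3, Clu and Bag6 out of 465.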

How the data were processed

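The deposited gene and transcript tables, 1 set per library, hold expected counts and TPM under the column names RSEM writes, with posterior standard deviations and credibility bounds of the signal and each transcript's percent of the gene TPM, per the file headers. Estimated counts and TPM of transcripts under kallisto's column names were also deposited. The submitters' accompanying text gives mm10 with GENCODE M21 and the labels a directional kit. No tool version or strand setting of the counting is given there. Whether reads of the Cast allele align as well to this assembly was not tested. The 26345 entries that are not annotated genes, 96 ERCC entries among them, took 0.238% of counts in replicate 2 and 0.243% in replicate 1 and were left out of library sizes.

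TPM were used as deposited, and kallisto-format values were summed per gene. Expected counts, rounded to whole numbers for factors and folds, were scaled with TMM (edgeR 4.0.16, R 4.3.3). Log2 ratios are of CPM + 1, which understates differences of low genes, and folds carry exact conditional binomial 95% intervals. Genes were tested at a mean of 100 counts or more, and counted as apart at 2-fold with an interval excluding 1. The fold calculation was tested on simulated data. Since reads carry no molecular identifiers, intervals and floors cover counting error only. The labels name the libraries as separate animals, and their counts differed beyond sampling noise (chi-square per degree of freedom 53.2 over 18181 genes). Proteins were translated from GENCODE coding sequences and aligned locally (Biopython 1.88, BLOSUM62, gap costs 11 and 1), since RefSeq proteins were not used here. All 8 genes and every gene of the 4 pathway lists and 9 marker lists were matched by symbol. The rule for named genes took all members of the lists, and the text describes some of them. These genes and lists were chosen with earlier results of these data known. Liver markers summed to 12.1 TPM in replicate 2 and 11.0 TPM in replicate 1.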

Additional observations from a re-analysis of the deposited data

How the results depend on the processing

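Over the alternatives tried, 158 values were recomputed, of which 120 moved by less than the spread between the animals, the counting interval or, for counts of genes, 1.5 times, and 38 moved further. The sign of the log2 ratio changed in 4 cases, all of ratios whose interval includes equality: for Tspo it was 0.01 with total counts, 0.04 with ERCC totals and 0.01 with nuclear coding totals, and for Stard6 0.09 with posterior mean counts. Mean Star TPM was 15785 when TPM were rescaled to nuclear coding genes and 3283 with incomplete models reassigned. The Star share of the 8 genes was 98.2% by counts and 92.9% with incomplete models reassigned. The Star log2 ratio was −0.61 with total counts, −0.57 with ERCC totals, −0.60 with nuclear coding totals and −0.63 with kallisto counts. Genes at least 2-fold higher in replicate 2 numbered 874 with a minimum of 10 counts and 1184 with none, and 821 were at least 1.5-fold higher. Genes at least 2-fold lower numbered 690 with a minimum of 10 counts and 996 with none, and 478 were at least 1.5-fold lower. Leaving out either animal gave Star levels of 4897 to 6855 TPM and shares of 95.1% to 96.7%. With 2 animals, leaving 1 out cannot move a mean by more than their SD. These settings therefore count among the 120 by construction and say nothing about how stable the values are. No paired analysis was possible because the labels give 1 group. Depth limits Stard6 and Tspo2, whose intervals span more than a 2-fold range.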
